A study of Homo sapiens with 4 samples.

Results

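The widest sites of RAD21 binding in the chromosomes of HCT116 cells, a human colon carcinoma line, were described from the RAD21 peaks of 1 ChIP-seq library. A peak was taken as wide when its interval spanned 1200 bp or more, which held for 1341 of the 55201 peaks on chromosomes 1 to 22, or 2.43%. The peak list of the library held 56853 peaks in all. The members were thus chosen by the width of their ChIP signal, so widths, fold enrichments and fragment numbers are given as descriptions, and the comparisons below concern where the peaks lay, which genes they met and which sequence motifs they held. The experiment had 4 libraries without replicates: the RAD21 ChIP (ab992) of untreated wild-type HCT116, the same ChIP of untreated HCT116_RAD21_AID cells and of these cells treated for 6 h with both auxins, α-NAA and IAA, each at 500 μM, together with Input DNA of the auxin-treated cells. HCT116_RAD21_AID is a single clone carrying the mAID degron in RAD21 and expressing the OsTIR1 ligase. The peak list came from wild-type cells. Data of the 3 remaining libraries were not analysed here. No peak was therefore checked by a replicate or set against depletion of RAD21, and no test between samples was possible. Intervals given with shares are 95% Wilson intervals and cover counting error only.

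RAD21 is the kleisin subunit that closes the cohesin ring around DNA. Cohesin is loaded on chromatin, extrudes loops and is held up at sites where CTCF, a zinc finger protein with a directional motif, is bound. Such sites give narrow, high peaks. Cohesin is also found at active promoters and enhancers, where its loader NIPBL and the transcription machinery are present, and there the ChIP signal can spread over a longer stretch. A long interval can further arise in repeated sequence, where reads of many copies fall on 1 assembled copy.

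Most wide peaks held no match to the CTCF consensus, and sequences of 2 smaller kinds that did are shown first, to let the matches be seen. The 5 peaks below, each named by its nearest protein-coding gene, were among the highest of the wide peaks whose summit lay outside exons and within 50 bp of a match to the 12-letter CTCF consensus. Capitals mark the match, with 20 bp on each side. All are given 5′ to 3′ on the plus strand of GRCh38, so that a match on the minus strand reads as its reverse complement.
ID2, chr2:8685908-8685959: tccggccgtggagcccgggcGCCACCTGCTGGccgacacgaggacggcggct
TRPM5, chr11:2428359-2428410: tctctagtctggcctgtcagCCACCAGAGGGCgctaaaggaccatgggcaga
WDR38, chr9:124853191-124853242: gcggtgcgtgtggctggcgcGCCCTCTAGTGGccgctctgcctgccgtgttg
PRR5, chr22:44626386-44626437: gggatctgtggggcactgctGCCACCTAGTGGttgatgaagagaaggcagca
LPIN3, chr20:41340149-41340200: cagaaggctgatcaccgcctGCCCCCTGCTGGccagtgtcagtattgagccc
The match at TRPM5 lay on the plus strand and the other 4 on the minus strand. The summit near ID2 was covered by 711 ChIP fragments, a fold enrichment of 90.6. In TRPM5 there were 601 fragments and 87.2-fold enrichment, and near WDR38 742 fragments and 86.6-fold enrichment. The other two had fold enrichments of 77.5 at a site 42157 bp from the start of PRR5 and 71.0 near LPIN3. In each of the 5 the whole interval of 1206 to 1354 bp held a single exact match.

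The other kind was an array of many matches in 1 interval. For 4 of these arrays a window of 160 bp on the plus strand of GRCh38 is shown, with the exact matches in capitals.
IGHVIII-2-1 array, chr14:105999419-105999578: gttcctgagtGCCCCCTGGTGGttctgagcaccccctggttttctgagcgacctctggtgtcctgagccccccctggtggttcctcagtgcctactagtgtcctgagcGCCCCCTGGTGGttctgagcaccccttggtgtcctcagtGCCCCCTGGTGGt
FAM20C array, chr7:262925-263084: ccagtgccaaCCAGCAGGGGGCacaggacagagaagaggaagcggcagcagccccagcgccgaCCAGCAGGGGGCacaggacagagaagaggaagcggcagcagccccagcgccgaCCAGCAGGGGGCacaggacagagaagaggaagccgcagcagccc
OR4N4 array, chr15:22173127-22173286: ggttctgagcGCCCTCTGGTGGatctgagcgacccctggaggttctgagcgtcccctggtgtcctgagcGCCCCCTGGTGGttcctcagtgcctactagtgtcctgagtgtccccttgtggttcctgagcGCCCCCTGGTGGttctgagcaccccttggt
AKR1E2 array, chr10:4815431-4815590: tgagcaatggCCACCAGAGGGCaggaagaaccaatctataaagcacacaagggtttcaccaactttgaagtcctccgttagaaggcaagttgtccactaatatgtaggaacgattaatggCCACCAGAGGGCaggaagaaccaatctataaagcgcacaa
The windows show repeated units. The peak near the immunoglobulin heavy chain pseudogene IGHVIII-2-1 held 15 exact matches. That near FAM20C held 12 and that in an intron of AKR1E2 held 6. With up to 1 mismatch allowed, these intervals held 41, 22 and 6, so that AKR1E2 had no near match beside its exact ones. In chromosome 15 a pair of peaks near the olfactory receptor genes OR4N4 and OR4N4C held 11 exact matches each. The 1352 bases from the first of these matches to the last were identical in both. Only the copy near OR4N4 is shown. Fragments wholly within these identical bases cannot be told apart, so that the separate heights of the pair are uncertain. Bases outside this stretch were not compared.

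The local background under each summit separated the members into groups. It can be worked back from the p-value and the fold enrichment in the list, and its lowest value, called the floor here, was 5.90 fragments, the level that held where the Input showed no local excess. Of the 1341 wide peaks, 74 had a background that reached 10 times this floor, which is 5.52% (4.42% to 6.87%), against 0.837% of all peaks on these chromosomes. The fold enrichment of these 74 entries ranged from 1.24 to 14.1 with a median of 2.10, and it was under 2 in 35 of them. In 58 of the 74 the 100 bases around the summit occurred again elsewhere in the genome assembly (78.4%, 67.7% to 86.2%). This held for 58 of 183 wide peaks with a background of 2 to under 10 times the floor (31.7%) and for 61 of 1084 below 2 times (5.63%). The 74 entries are described on their own at the end, and all counts below are over the other 1267 wide peaks unless stated. They are set beside the 54739 peaks of any width with a background under 10 times the floor, a set that includes them.

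The 1267 peaks were between 1200 and 7630 bp wide, with a median of 1398 bp and quartiles of 1277 and 1644 bp. A width of 1500 bp was reached by 477 of them, 2000 bp by 137 and 3000 bp by 38. Together they spanned 1996 kb, or 7.00% of all peak bases on these chromosomes. Their fold enrichment had a median of 15.0 and quartiles of 5.22 and 30.6, and summits were covered by a median of 133 ChIP fragments. An enrichment of 10-fold or more was reached by 755 (59.6%, 56.9% to 62.3%), against 27.7% of all peaks. Under 5 stayed 292 (23.0%), against 44.5% of all peaks. In peaks of 900 to under 1200 bp the median was 17.6, with 67.6% at 10-fold or more and 17.8% under 5. The wide peaks were thus not higher than this nearest narrower class. Width and fold enrichment come from the same signal, so that nothing is read from these differences. Across the 54739 peaks the rank correlation of width with fold enrichment was 0.64, whereas across the 1267 wide peaks it was -0.036, as a description of sites that share 1 library and its depth. The cut at 1200 bp narrows the range of width, which by itself can lower such a correlation. The 10 widest of the 1267 had fold enrichments between 3.52 and 5.76. The summit lay in the first or last 25% of the interval in 36.1% of wide peaks and in 14.5% of all peaks.

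At the width limit, 2 of the 3 entries of exactly 1200 bp were in an intron of LMF1, with a fold enrichment of 4.35 and 8 other copies of the summit sequence, and at TNFRSF10D, with 9.76. The 3 entries 1 bp narrower were at FGGY-DT, with a fold enrichment of 6.81, at ENSG00000274937 near CYP11A1, with 5.58, and at ENSG00000267605 near ZNF875, with 4.26.

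Wide peaks lay at promoters more often than peaks in general. The summit was within 1 kb of an annotated transcription start in 631 of the 1267 (49.8%, 47.1% to 52.6%), against 24.2% of all peaks. Introns held 283 of the summits (22.3%, 20.1% to 24.7%), exons 55 (4.34%) and intergenic sequence 298 (23.5%, 21.3% to 25.9%), where the shares over all peaks were 38.4%, 5.25% and 32.1%. The share at promoters was 21.2% for peaks under 300 bp, 22.2% from 300 to under 600 bp, 26.0% from 600 to under 900 bp and 37.2% from 900 to under 1200 bp. The increase therefore lay mostly above 900 bp. The summit is a single position, so that a longer interval does not by itself bring it nearer to a start. Only 39 wide peaks were more than 50 kb from any start (3.08%), against 10.4% of all peaks.

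**Figure D1:**
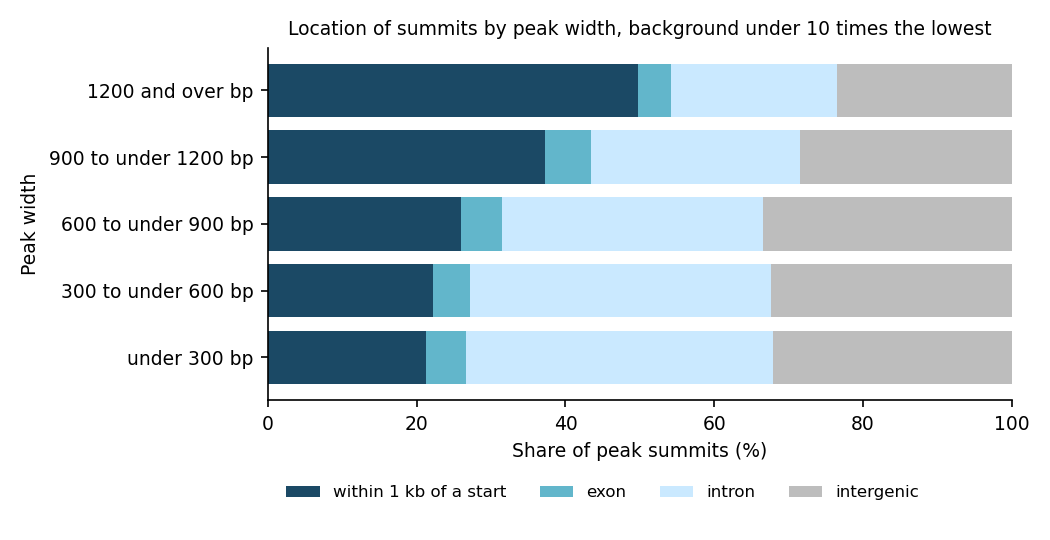
Share of peak summits (%) within 1 kb of a transcription start, in exons, in introns and in intergenic sequence, for 5 classes of peak width. The share near a start goes from 21.2% in the narrowest class to 49.8% in the widest.

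The difference in location was found at every height of the peak. Among peaks with a fold enrichment under 5, the summit was at a promoter in 56.2% of wide peaks (50.4% to 61.7%) and in 31.6% of narrower ones. From 5 to under 10 the shares were 66.4% (59.9% to 72.3%) and 17.3%, and from 10 to under 20 they were 54.3% (48.2% to 60.2%) and 15.8%. From 20 to under 40 they were 39.9% (34.5% to 45.4%) and 17.8%, and from 40 upwards 30.9% (24.8% to 37.8%) and 20.2% (17.8% to 22.9%). The intervals did not overlap in any of the 5 classes, and the gap was smallest for the highest peaks. Wide peaks at promoters were also lower than the others, with a median fold enrichment of 10.3 against 24.0 in intergenic sequence and 18.4 in introns.

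**Figure D2:**
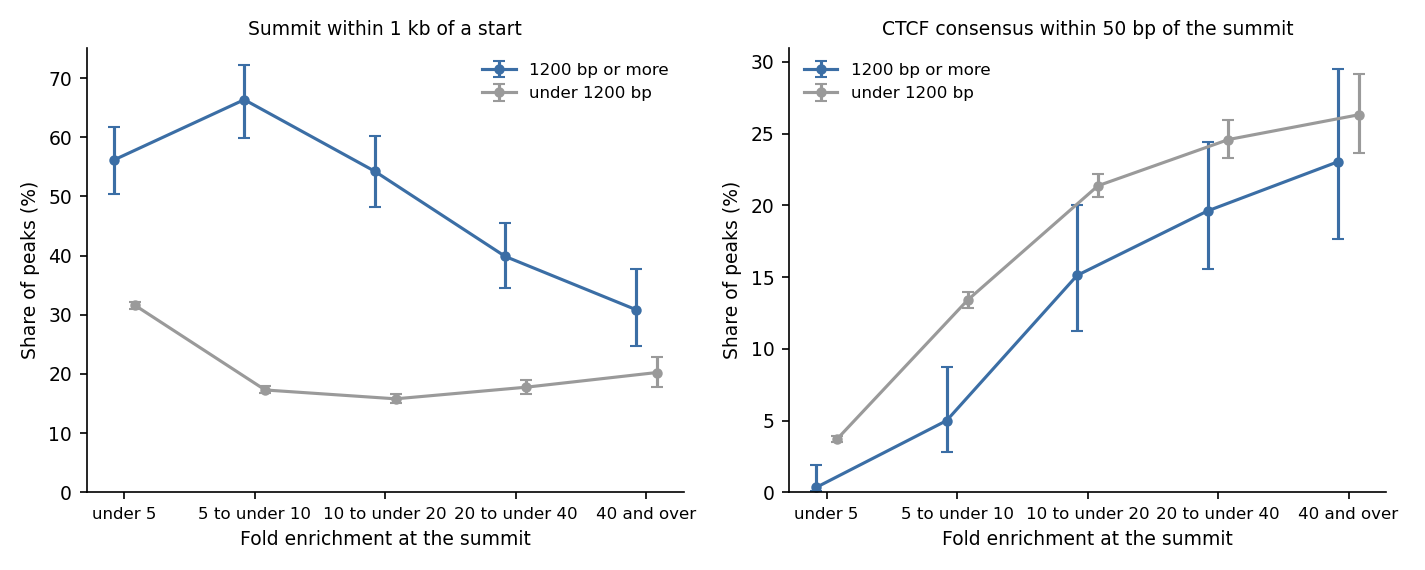
Share of peaks (%) with the summit within 1 kb of a transcription start (left) and with a CTCF consensus match within 50 bp of the summit (right), by fold enrichment, for wide (blue) and narrower peaks (grey) with 95% Wilson intervals. Wide peaks lie above narrower ones in the left plot in all 5 classes and below them in the right plot, where the intervals overlap from a fold enrichment of 20 upwards.

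Base composition differed as well. Within 100 bp of the summit the median G+C content was 64.2% in wide peaks and 53.7% in all peaks, and the ratio of observed to expected CpG was 0.60 against 0.29. Peaks of 900 to under 1200 bp lay between, with 61.2% and 0.46. At promoters, where CpG islands lie, the ratio was 0.78 for wide peaks and 0.66 for all peaks, and in introns it was 0.36 against 0.23. Composition can also affect the recovery of DNA in a ChIP library, and its part in the widths was not tested.

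By the class of the nearest start, 466 of the 631 promoter summits were at protein-coding genes, 142 at lncRNA genes and 23 at genes of other classes. With protein-coding starts alone, 520 summits lay within 1 kb (41.0%, 38.4% to 43.8%), against 18.5% of all peaks. They belonged to 511 genes. Positions here and below were measured from the annotated protein-coding start nearest the summit. This choice by itself keeps offsets of the summit small, and another start of the same gene would give other extents. In 472 of these peaks that start was inside the interval, which extended a median of 690.5 bp upstream and 823.5 bp downstream of it. The downstream part was the longer in 272 (57.6%). The summit was on the upstream side in 301 and on the downstream side in 218, a median of 42 bp before the start. An interval held protein-coding starts on both strands in 38 wide peaks (3%) and in 0.440% of all peaks, but longer intervals hold more starts by their length alone.

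The widest peak with its summit within 1 kb of a protein-coding start was at MYC, a transcription factor that drives growth, with 4101 bp in chr8:127734857-127738957, 140 fragments and a fold enrichment of 10.6 on a background 2.09 times the floor. The peak at FOXO3, a forkhead factor downstream of AKT, was 3872 bp wide in chr6:108559058-108562929 with a fold enrichment of 6.34. At RHOF, a small GTPase of filopodia, the peak was 3534 bp wide with a fold enrichment of 38.5 and held 1 CTCF consensus match away from the summit. TRIB1, a pseudokinase that brings substrates to the COP1 ligase, had a peak of 3351 bp, of which 3235 bp lay upstream of the start, on a background 2.73 times the floor. The fold enrichment of these 4 peaks thus ran from 6.34 to 38.5 at widths of 3351 to 4101 bp.

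At CITED2, which binds the coactivators CBP and p300, the peak was 3176 bp wide with a fold enrichment of 16.2. KLF4, an epithelial zinc finger factor, had 3175 bp at a fold enrichment of 4.78, and SOCS1, which inhibits JAK kinases, had 3088 bp at 39.1. The nuclear receptor gene NR4A2 had 3059 bp at 4.55, the AP-1 subunit gene JUNB 2929 bp at 4.66, and SOCS2, another member of the SOCS family, 2727 bp at 17.4. The peak at JUNB extended 2859 bp downstream and 69 bp upstream of the start, so that it covered the short intronless gene, while that at NR4A2 extended 2321 bp upstream and 737 bp downstream. The extent was thus not placed alike from gene to gene around the start nearest the summit. BMP4, DUSP4 and ZFP36L2, whose summits were nearer to an lncRNA start, had peaks of 3549, 3142 and 2952 bp that also reached the protein-coding start.

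The 250 bases upstream of an annotated start of the gene are shown for 4 of the widest of these peaks, as examples of their base composition. These peaks had a background under 2 times the floor and no annotated exon in the window. For FOXO3, CITED2 and KLF4 this was another start than the one from which the extents above were measured. Sequences are from RefSeq on GRCh38.p14 and read 5′ to 3′ on the gene's strand. Capitals mark GGGCGGG on either strand, the core of SP and KLF factor sites.
FOXO3, plus strand, chr6:108559575-108559824: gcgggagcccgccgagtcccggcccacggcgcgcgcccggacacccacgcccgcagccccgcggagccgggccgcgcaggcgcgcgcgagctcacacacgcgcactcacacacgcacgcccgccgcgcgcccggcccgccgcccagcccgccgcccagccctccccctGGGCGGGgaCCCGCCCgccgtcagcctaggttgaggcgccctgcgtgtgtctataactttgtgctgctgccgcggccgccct
CITED2, minus strand, chr6:139374649-139374898: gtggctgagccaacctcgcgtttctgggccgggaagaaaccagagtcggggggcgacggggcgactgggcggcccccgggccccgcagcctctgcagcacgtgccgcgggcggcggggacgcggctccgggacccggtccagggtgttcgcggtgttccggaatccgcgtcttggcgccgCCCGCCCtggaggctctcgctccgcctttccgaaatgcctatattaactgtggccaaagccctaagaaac
KLF4, minus strand, chr9:107489770-107490019: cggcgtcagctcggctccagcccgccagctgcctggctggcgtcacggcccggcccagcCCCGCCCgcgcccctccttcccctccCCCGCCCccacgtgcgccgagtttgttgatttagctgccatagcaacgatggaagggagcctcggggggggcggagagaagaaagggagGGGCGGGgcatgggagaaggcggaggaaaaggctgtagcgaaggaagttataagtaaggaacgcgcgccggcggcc
SOCS1, minus strand, chr16:11256205-11256454: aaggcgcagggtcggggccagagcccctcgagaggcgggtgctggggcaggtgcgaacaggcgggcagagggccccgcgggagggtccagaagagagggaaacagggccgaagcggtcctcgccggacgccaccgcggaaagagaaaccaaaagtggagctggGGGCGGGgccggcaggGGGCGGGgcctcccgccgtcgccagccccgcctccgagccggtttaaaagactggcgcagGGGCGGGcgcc
The windows of FOXO3 and SOCS1 held 2 and 3 matches, that of KLF4 held 3 and that of CITED2 held 1. Their G+C content was 80.4%, 74.0%, 69.2% and 70.0%. Over the promoter table, 31.6% of 33725 windows of this length held the motif, and 46.3% of the 944 windows of genes with a wide peak did. The ETS motif CCGGAAG was found in 11.3% and 8.55%, the AP-1 motif TGANTCA in 4.34% and 6.54%, TATAAA on the gene's strand in 4.87% and 6.84%, and CCAAT on either strand in 25.3% and 31.8%, for genes with a wide peak and for all. Of these, the 2 rich in G and C were more frequent in the former. The NRF1 consensus, also rich in G and C, was in 4.56% and 5.07%, and the YY1 motif AAGATGGCG in 1.17% and 0.643%.

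Motifs were also counted within 100 bp of the summits. In wide peaks at promoters 24.4% (21.2% to 27.9%) held GGGCGGG, against 17.8% of all peaks at promoters, and away from promoters the shares were 8.65% (6.70% to 11.1%) and 3.72%. The AP-1 motif was in 2.99% (1.92% to 4.62%) of wide peaks away from promoters and in 6.02% of all such peaks, the GATA motif AGATAA in 2.52% (1.55% to 4.05%) and 7.45%, and the CDX motif TTTATTG in 1.89% and 3.11%. For the colon factors HNF4 (CAAAGTCCA) and HNF1 (by its consensus) the wide peaks held 5 and 0 matches in all, too few to compare. A match describes letters and is no evidence of a bound factor, and the shares move with the base composition given above.

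Among all 19111 protein-coding genes, 664 had a wide peak reaching to within 1 kb of a start, or 3.47%, and 47.6% had a peak of any width there. Of 25 immediate early genes, which are switched on within minutes of growth factor signals, 8 had a wide peak (32%), and 23 had a peak of any width (92%). The 6 widest were at DUSP5, with 4121 bp and a fold enrichment of 6.38, DUSP4, JUNB, IER3 with 2596 bp and 7.53, KLF10 with 2063 bp and 4.90, and EGR2 with 1937 bp and 22.7. DUSP4 and DUSP5 encode phosphatases of MAP kinases, and EGR2 a zinc finger factor. Fold enrichments ran from 4.66 at JUNB to 22.7 at EGR2, and none of these 6 peaks held a CTCF consensus match.

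Of 20 intestinal epithelial transcription factor genes, 4 had a wide peak (20%). These were KLF4, SOX9 with 2469 bp and a fold enrichment of 8.52, ELF3 with 2116 bp and 17.1, and GATA6 with 1310 bp and 7.56. SOX9 is a factor of crypt progenitor cells, and ELF3 an ETS factor of epithelia. Among 32 genes of epithelial adhesion and keratins, 8 had one (25%), the widest at ITGB4 with 2255 bp, EGFR with 1687 bp, CLDN4 with 1552 bp, OCLN with 1440 bp, MET with 1380 bp and KRT8 with 1378 bp. The last interval also covered the start of KRT18, its partner keratin gene. Apart from MET at 15.6, the fold enrichments of this list were between 4.35 and 6.34.

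Of 30 cell-cycle and p53 genes, 4 had a wide peak (13.3%). At CCND1, the cyclin of G1 entry, it was 1921 bp wide with a fold enrichment of 42.7, and the other 3 were GADD45B with 50.9, CDK6 with 15.8 and GADD45A with 2.72 on a background 2.57 times the floor. Of 28 glycolysis and housekeeping genes, 3 had one (10.7%), namely PKM, ACTB and EEF1A1, with fold enrichments of 4.62, 11.6 and 4.27. Of 12 genes of cohesin, its loader and release factors and CTCF, STAG1 alone had one, 1323 bp wide with a fold enrichment of 34.5 and 2 CTCF consensus matches 58 bp apart (8.33%). STAG1 encodes a cohesin subunit that binds RAD21 and CTCF.

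Some lists were closer to the share of all protein-coding genes, or below it. The WNT pathway had 2 of 31 (6.45%, NOTUM and LRP5), the cytosolic ribosomal protein genes 2 of 76 (2.63%) and the HOX genes 0 of 39. The core small nuclear RNA genes, which are not protein-coding, had 0 of 33, beside 3 of all 1800 annotated small nuclear RNA genes (0.167%). A peak of some width at a start was found for 23 of the WNT genes (74.2%), 40 of the ribosomal protein genes (52.6%) and 20 of the HOX genes (51.3%). It was found for 15 of the core small nuclear RNA genes (45.5%), against 5.83% of all small nuclear RNA genes. Of the lists with higher shares, the intestinal factors had one in 12 genes (60%), adhesion and keratins in 25 (78.1%) and cell-cycle and p53 genes in 19 (63.3%). The glycolysis and housekeeping list had one in 23 (82.1%) and the cohesin list in 9 (75%). The lists were small, and genes of a list can share a locus.

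A CTCF consensus match lay within 50 bp of the summit in 155 of the 1267 wide peaks (12.2%, 10.5% to 14.2%), against 11.5% of all peaks. The share was 4.29% for peaks under 300 bp, 10.8% from 300 to under 600 bp and 18.7% from 600 to under 900 bp. From 900 to under 1200 bp it was 18.1% (16.7% to 19.5%), so that wide peaks lay below the nearest narrower class. At comparable height, wide peaks held fewer. From a fold enrichment of 5 to under 10 the shares were 5.00% (2.81% to 8.73%) in wide and 13.4% in narrower peaks, from 10 to under 20 they were 15.1% (11.3% to 20%) and 21.4% (20.5% to 22.2%), and under 5 a single wide peak of 292 had a match (0.342%), against 3.71% of narrower peaks. From 20 to under 40 they were 19.6% (15.5% to 24.4%) and 24.6%, and from 40 upwards 23.0% (17.6% to 29.5%) and 26.3%, so that the intervals overlapped in both of these classes. By location, matches at the summit were in 10.5% (8.31% to 13.1%) of wide peaks at promoters and in 7.01% of all peaks at promoters, but in 14.0% (11.5% to 16.9%) and 13.0% away from promoters. With 1 mismatch allowed, 38.5% of wide and 38.8% of all peaks had a match.

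Over the whole interval, 202 wide peaks held at least 1 match (15.9%), with 184 holding 1 and 18 holding 2 or more (1.42%, 0.901% to 2.23%), against 0.148% of all peaks with 2 or more. A longer interval has more room for matches. Per kilobase of interval, wide peaks held 0.133 matches and all peaks 0.247, and without the 5 arrays the wide peaks held 0.106. Their additional length therefore carried few matches. Where there was 1 match in the interval, it was a median of 20 bp from the summit and within 50 bp in 140 of 184. In 38 it was over 300 bp away, a distance that most narrower intervals cannot hold.

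Of the 18 peaks with several matches, 12 had 2, which lay between 58 and 1207 bp apart with a median of 839.5 bp. The 2 matches were on the same strand in 8 peaks, pointed towards each other in 2 and away from each other in 2. Peaks with a pair included those in an intron near PDGFRA, with 57.1-fold enrichment and 960 bp between the matches, at EXOC3L4, with 53.5 and 788 bp, and at CENPX, with 37.7 and 1207 bp. One peak, at LINGO1, had 3 matches. These peaks were named after their values had been seen.

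In all 5 arrays every match was on the same strand. In the array near FAM20C, 7 of the 11 steps between neighbouring matches were 53 bp, and in AKR1E2 all 5 steps were 110 bp. In the array near IGHVIII-2-1, 5 of 14 steps were 81 bp. The arrays with more matches had lower fold enrichments. These were 9.71 with 15 matches, 15.3 with 12, 29.7 and 27.8 with 11 and 33.2 with 6. Only 5 peaks are compared, and the separate heights of the pair in chromosome 15 are uncertain. The summit lay within 50 bp of a match in 4 of the 5, the exception being AKR1E2. Apart from the pair in chromosome 15, the summit sequences had no other exact copy in the assembly.

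The highest wide peaks were mostly intergenic. The highest fold enrichment, 277 with 1912 fragments on a background at the floor, was in chr17:83204940-83206600, in an intron of the lncRNA gene ENSG00000262898, and its summit sequence had 2 other copies in the assembly. It was followed by peaks near KCTD15 in chr19:33777795-33779494, with 154 and 1063 fragments, and near ENAH in chr1:225474592-225475871, with 143 and 1495 fragments. The next were near GPR142 with 98.7, near WNT7B with 94.6, near CHMP6 with 94.1, in chromosome 21 with 91.3, near ID2 with 90.6, in TRPM5 with 87.2 and near NKX2-2 with 87.2. The entry in chromosome 21, chr21:8193162-8194594, had 3 other copies of its summit sequence. None of the 10 was within 1 kb of a start, 8 were intergenic, and the CTCF consensus was found only at ID2 and in TRPM5. When 1 mismatch was allowed, the interval with the highest fold enrichment held 7 matches, and those near KCTD15, ENAH and GPR142 held 1 each. Among wide peaks whose nearest start was protein-coding and within 1 kb, 5 were named as the highest. They were at WDR38 with 86.6, ISLR2 with 82.8, PTPRE with 81.7, LPIN3 with 71.0 and GRIK4 with 67.5. Of these 5, 4 had the consensus at the summit, PTPRE being without it. The peaks near TBX2, with 81.3, and near PRR5, with 77.5, were within 1 kb of a start of another class.

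The widest entries with a background under 10 times the floor were mostly in repeated sequence. The 10 widest, from 4162 to 7630 bp, had fold enrichments between 3.52 and 5.76, and in 8 the background reached 2 times the floor, 7 had another copy of the summit sequence and none held the exact CTCF consensus. The widest was the intergenic interval chr2:91504835-91512464. It was followed by chr15:101754922-101762031 at the pseudogene DNM1P47, with 7110 bp and 8 other copies. Of the 10, 3 were in TTC34 in chromosome 1, with 6156, 5470 and 5092 bp, 2 were in LINC00665 in chromosome 19, with 5570 and 5113 bp, and 2 more were in chromosome 2, with 4828 and 4162 bp. The entry in an intron of BRF1, 4799 bp wide, had 73 other copies of its summit sequence and 47 matches to the CTCF consensus with 1 mismatch. The widest 10 that had a background under 2 times the floor and no other copy, a set chosen after the values had been seen, were at FOXO3, BMP4, RHOF, near IER5L, near DHRS3, near CCT8L2, and at CITED2, KLF4, DUSP4 and SOCS1, with 3088 to 3872 bp, and 8 of them had the summit within 1 kb of a start.

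Some wide peaks stood high as well as wide. An enrichment of 40-fold or more was reached by 191 (15.1%), against 2.13% of all peaks and 15.9% of those from 900 to under 1200 bp. The widest of the 191 were near DHRS3 with 3357 bp and 42.6, near TBX2 with 3002 bp and 81.3, near ELOVL3 with 2827 bp and 57.1, near GADD45B with 2550 bp and 50.9 and at EPHA4 with 2539 bp and 65.0. TBX2 encodes a T-box repressor and EPHA4 an ephrin receptor. Only the peak near GADD45B had the CTCF consensus at its summit. These 5 were also named after their values had been seen.

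Wide peaks were nearer to other peaks than peaks in general, with a median of 5894 bp to the next peak against 11165 bp. For peaks of 900 to under 1200 bp this median was 7168 bp. Groups of at least 4 wide peaks of any background, each within 100 kb of the next, were found in 23 places. In chr8:144373337-144528462, 7 wide peaks lay at the starts of ADCK5, LRRC14, RECQL4 and their neighbours, with fold enrichments from 3.04 to 19.5, and none had another copy of its summit sequence. In chr17:41547914-41802163 a group of 4 included peaks near the keratin genes KRT17 and KRT19, with fold enrichments up to 57.7, and in chr17:72559912-72728728 a group of 5 around SLC39A11 reached 55.8. Other groups were in repeated loci, such as 16 wide peaks in and near TTC34 in chr1:2652214-2773214, with fold enrichments of at most 5.87, and 10 in chr19:36272208-36309035.

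By chromosome, chromosome 17 held the most of the 1267 peaks, 137, or 1.65 per Mb and 4.53% of its peaks. It was followed by chromosome 19 with 0.975 per Mb and chromosome 22 with 0.919 per Mb, while chromosome 13 had the lowest density, 0.153 per Mb and 1.02% of its peaks. The median background over all peaks of a chromosome was 1.42 times the floor on chromosome 8, 1.37 on chromosome 17, 1.27 on chromosome 10 and between 1.07 and 1.16 on the others. HCT116 is known to carry gains on chromosomes 8, 10, 16 and 17. The part of copy number, gene density or background in these numbers was not tested.

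The 74 entries whose background reached 10 times the floor lay in 21 places of 1 Mb. Of these entries, 29 were in the short arm of chromosome 21 around 8 Mb, among copies of the 5.8S ribosomal RNA gene and of MIR6724, and all 29 had another copy of the summit sequence. Their fold enrichments ran from 1.78 to 14.1 and their backgrounds from 16.1 to 58.1 times the floor. Near the centromere of chromosome 1, 12 entries at 122 and 123 Mb had fold enrichments from 1.29 to 1.97, 7 at 49 Mb of chromosome 4 had 1.24 to 1.80, and 7 at 85 Mb of chromosome 8, in the REXO1L1P gene family, had 1.82 to 2.39. Backgrounds reached 805 times the floor at 49 Mb of chromosome 5. The 5 widest of the 74 were chr21:8241865-8247294 with 5430 bp, chr1:2652214-2656900 in TTC34 with 4687 bp, and 3 more in chromosome 21 with 4577, 4473 and 4342 bp.

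None of the 74 entries held a CTCF consensus match in the interval, and none had a match within 50 bp of the summit even with 1 mismatch. None had its nearest promoter start at a protein-coding gene, although 14 lay within 1 kb of some annotated start. One entry, chr6:157312100-157314270 in an intron of TMEM242, had no other exact copy of its summit sequence, 170 ChIP fragments on a background 16.9 times the floor and a fold enrichment of 1.70. The interval lies inside the repeat cluster that the paper visualised and named C6. An exact search does not count repeats that differ in sequence. Multicopy loci also lay below the limit of 10 times: 6 wide peaks at the 5S ribosomal RNA genes of chromosome 1, 1220 to 2379 bp wide, had backgrounds from 4.33 to 8.67 times the floor and fold enrichments from 2.11 to 3.69, and all 6 had other copies. Restricting the wide peaks to a background under 2 times the floor and no other copy of the summit sequence left 1023, of which 54.4% had the summit at a promoter and 12.8% had the CTCF consensus at the summit.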

How the data were processed

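RAD21 ChIP-seq of untreated wild-type HCT116 cells was analysed from its peak list. Per the methods and the submitters' processing notes, the authors trimmed reads with Trimmomatic 0.39, aligned them with Bowtie2 2.5.3 to GRCh38, removed duplicates with Picard and called peaks on this library alone with MACS2 2.2.9.1 against Input at a q-value threshold of 0.05. Coverage profiles were made with deepTools 3.5.4. The methods do not name the Input used. For each peak the deposited file gives a position and summit, a score (not used), the ratio of signal to local background at the summit (fold enrichment), and −log10 of the p-value and of the q-value.

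The background and the ChIP fragments under a summit were worked back from its p-value and fold, given that MACS2 uses a Poisson distribution and a ratio with 1 added to each count. All but 14 of 56853 numbers came out whole within 0.05, and the recovery and the motif search were tested on simulated data. The lowest background, 5.90 fragments, stood under 17739 peaks and corresponds to about 74600000 ChIP fragments if all counted over a length of 222 bp, the narrowest peak. The reference sequence held all sequence names of the list, and 0 peaks passed a sequence end.

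With GENCODE version 44, a summit within 1 kb of a start was a promoter summit, and others were placed in exons, then introns, then intergenic sequence. The CTCF consensus was searched on both strands within 50 bp of the summit and over whole intervals. Other motifs were searched on both strands within 100 bp of the summit. Copies were exact matches of the 100 bases around the summit elsewhere in the assembly. A gene was counted with a wide peak when any part of one lay within 1 kb of a start of the gene. Of the gene lists, 12 of 15 cohesin, 31 of 32 WNT, 28 of 30 glycolysis and housekeeping and 33 of 34 small nuclear RNA genes were found on chromosomes 1 to 22, and the others in full.

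The members and gene lists were chosen with earlier results of these data known. Named peaks were the 10 widest and the 5 widest of high background, the 10 highest, the 5 with most CTCF matches, the 10 widest at protein-coding promoters, up to 6 of a gene list and 3 on each side of the width limit, beside those said to have been chosen after their values were seen. Some items under these rules are not reported here. The alternatives were other width, background, promoter, motif and q-value limits. With 1 library, no test was made. Software was matplotlib 3.10.9, numba 0.67.0, scipy 1.17.1, pandas 2.3.3 and numpy 2.4.6 in Python 3.11.15.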

Additional observations from a re-analysis of the deposited data

Results flagged for a closer look

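Wide peaks also appeared outside chromosomes 1 to 22, in sequences on which the report makes no comparison. Unplaced and unlocalized sequences of the assembly held 57 wide peaks of 456 peaks (12.5%), spread over 18 sequences, with a median width of 1657 bp and a largest width of 5115 bp. Their fold enrichments ran from 1.28 to 80.9 with a median of 3.29, and in 42 of them the background reached 10 times its lowest value. Chromosome X held 7 wide peaks of 1135 peaks (0.617%), with fold enrichments from 3.27 to 35.4 and a median of 21.9, and 1 of them had a high background. Both were brought up because they are signal in data outside the main measurement. Beyond the Input used in peak calling they were not set beside another library, as the other libraries were not analysed here.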

How the results depend on the processing

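All values rest on 1 library, whose depth gives no measure of biological spread. The number of wide peaks was 1341 at 1200 bp, 2811 at 1000 bp and 526 at 1500 bp. It was close to 1341 with a q-value of 1e-05, with neighbouring peaks joined and with the sex chromosomes included. The share of high background, 5.52%, was 7.46% at 5 times and 19.2% at 2 times the lowest background, and 9.32% among peaks of at least 1500 bp. The median fold enrichment of 15.0 was 16.4 with a background under 2 times the lowest value, and 17.0 when peaks with another copy of the summit sequence were left out as well, an alternative added after seeing the data. The promoter share of 49.8% was 59.3% with a limit of 2 kb, 57.9% with classes taken over the whole peak, 41.0% with protein-coding starts alone, 52.6% at 1500 bp, 42.5% at a fold enrichment of at least 10 and 54.4% under the added alternative. Over all peaks it was 31.3% at 2 kb, 26.4% over whole peaks and 17.9% at a fold enrichment of at least 10. The share with the CTCF consensus at the summit, 12.2%, was 38.5% with 1 mismatch, 10.5% at 1500 bp and 18.9% at a fold enrichment of at least 10. The share with several matches, 1.42%, was 19.3% with 1 mismatch, against 4.40% of all peaks. The other 11 alternatives moved their value by less than its counting interval, or a count by less than 1.5 times. The causes of these changes, beyond the construction of each alternative, were not tested. No paired analysis was possible because the list came from 1 library.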
